A study of Mus musculus with 7 samples.

Results

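The genes described here encode the nuclear pore complex and the nuclear transport machinery. Members were chosen by a rule on gene symbols, with earlier results of these data known. They are the numbered Nup genes, the importin alpha genes (Kpna), the importin beta gene Kpnb1, the numbered importins (Ipo) and the exportins Xpo1, Xpo4, Xpo6, Xpo7 and Xpot, together with Tpr, Ran, Seh1l, Sec13, Ndc1 and Pom121. The rule found 45 of the 55364 genes listed, and 44 of them had at least 1 TPM (a level that is corrected for gene length and scaled to the same total in each library) in at least 2 of the 7 libraries. Nup210l was the exception, at no more than 0.891 TPM in any library, and was not tested. Nup58 and Nup42 are listed under their older symbols Nupl1 and Nupl2, which the rule does not match, and were not included. By their place in the pore, 8 members belong to the Y complex, 5 to the inner ring, 4 to the membrane nucleoporins, 2 to the central channel, 3 to the cytoplasmic side with Nup98, and 3 to the nuclear basket. The transport side comprises 6 importin alpha genes, 8 of the importin beta family, 5 exportins and Ran.

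RNA was measured in mini-oocytes, oocyte-like cells made from female mouse embryonic stem cells (mESCs) of the BVSC H18 line, a 129/C57BL6 hybrid, in 2-dimensional culture without gonadal somatic cells. 4F-mini-oocytes carried Nobox, Figla, Tbpl2 and Lhx8, and 8F-mini-oocytes carried these together with Stat3, Dynll1, Sub1 and Sohlh1. The 8F-mESCs also carried an Npm2-mCherry reporter cassette. Each factor was fused to a destabilization domain and stabilised by Shield-1, which was left out of fresh medium from day 12, and all cultures received SCF and the ROCK inhibitor Y-27632. At day 7, RNA came from pools of 1000 4F-mini-oocytes (n = 2). At day 21 each pool held 10 cells, either 4F (n = 3) or 8F (n = 2). Day, the number of cells pooled and the omission of Shield-1 from fresh medium changed together and cannot be told apart. No source states that samples of a group came from separate inductions, so p-values measure the spread between these samples, which may be technical. The methods name NovaSeq 6000 and NovaSeq X Plus instruments without assigning libraries to them, so the instrument could not be modelled and its part in the results was not tested.

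The nuclear pore is a large channel through the nuclear envelope. A Y-shaped scaffold and an inner ring hold it in the membrane, phenylalanine-glycine nucleoporins fill the channel, and a basket and cytoplasmic filaments extend from its faces. Importin alpha binds the nuclear localisation signal of a cargo and importin beta carries the pair through the pore, whereas exportins carry cargo out with Ran bound to GTP. Growing oocytes store transport components for the embryo, and Kpna7 is an importin alpha known for its expression in oocytes and early embryos.

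The member genes are, for the most part, expressed above most genes of the library. Between 40 and 43 of the 44 tested members reached 10 TPM in a library, and their median percentile among all genes listed was between 92.9 and 95.7. The fewest reads behind a tested member were 121, for Ipo13 in the first day 7 library, against 9051761 to 17190271 estimated reads on genes per library. Intervals from such reads would cover counting error only, and the spread between libraries is therefore the error used below.

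Members varied less within groups than all tested genes did. The median residual SD on the log2 scale was 0.155 for members and 0.403 for all tested genes. Of the 21780 tested genes, 10572 had a mean of at least 10 TPM, a level that most members reached in each library. The spread of those 10572 genes was not computed, so the part of expression level in this difference was not tested. The summed members made up 0.232% and 0.240% of the TPM at day 7. Their share was between 0.441% and 0.461% in day 21 4F-mini-oocytes, and 0.479% and 0.485% in day 21 8F-mini-oocytes. The 3 ranges do not overlap. These sums include Kpna2, the highest member, at 589 to 645 TPM in day 21 4F and at 972 and 934 TPM in 8F. The median member was at 71.6 to 85.3 TPM in day 21 4F. It was at 82.3 and 82.4 TPM in 8F, within the 4F range. The share without Kpna2 was not computed.

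The labelled cell type was checked against marker lists. All 8 oocyte markers (Zp1, Zp2, Zp3, Gdf9, Bmp15, Ooep, Ddx4 and Npm2) were at 1 TPM or more in all 7 libraries, and their summed level was between 4326 and 5327 TPM at day 7 and between 20315 and 24885 TPM at day 21. Of 8 mESC markers, between 4 and 6 reached 1 TPM, with summed levels between 61.1 and 81.9 TPM at day 7 and between 123 and 345 TPM at day 21, and Nanog was at 0 in 6 of the 7 libraries. Between 0 and 2 of the 6 granulosa cell markers reached 1 TPM, and their sum stayed below 4 TPM. The list of differentiated or trophoblast genes was higher at day 7 (1111 and 1587 TPM) than at day 21 (70.1 to 183 TPM). Of its 8 genes, 4 reached 1 TPM in both day 7 libraries and 2 to 3 in the day 21 libraries. Cdx2, Sox17 and T were at 0 in both day 7 libraries. All 9 proliferation genes were at 1 TPM or more throughout, with sums of 404 and 532 TPM at day 7 and between 1243 and 1323 TPM at day 21. These lists thus moved with the day, and their part in the results for day 21 against day 7 was not tested. In pooled RNA, fewer cells of a type and less RNA per cell cannot be told apart.

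**Figure D1:**
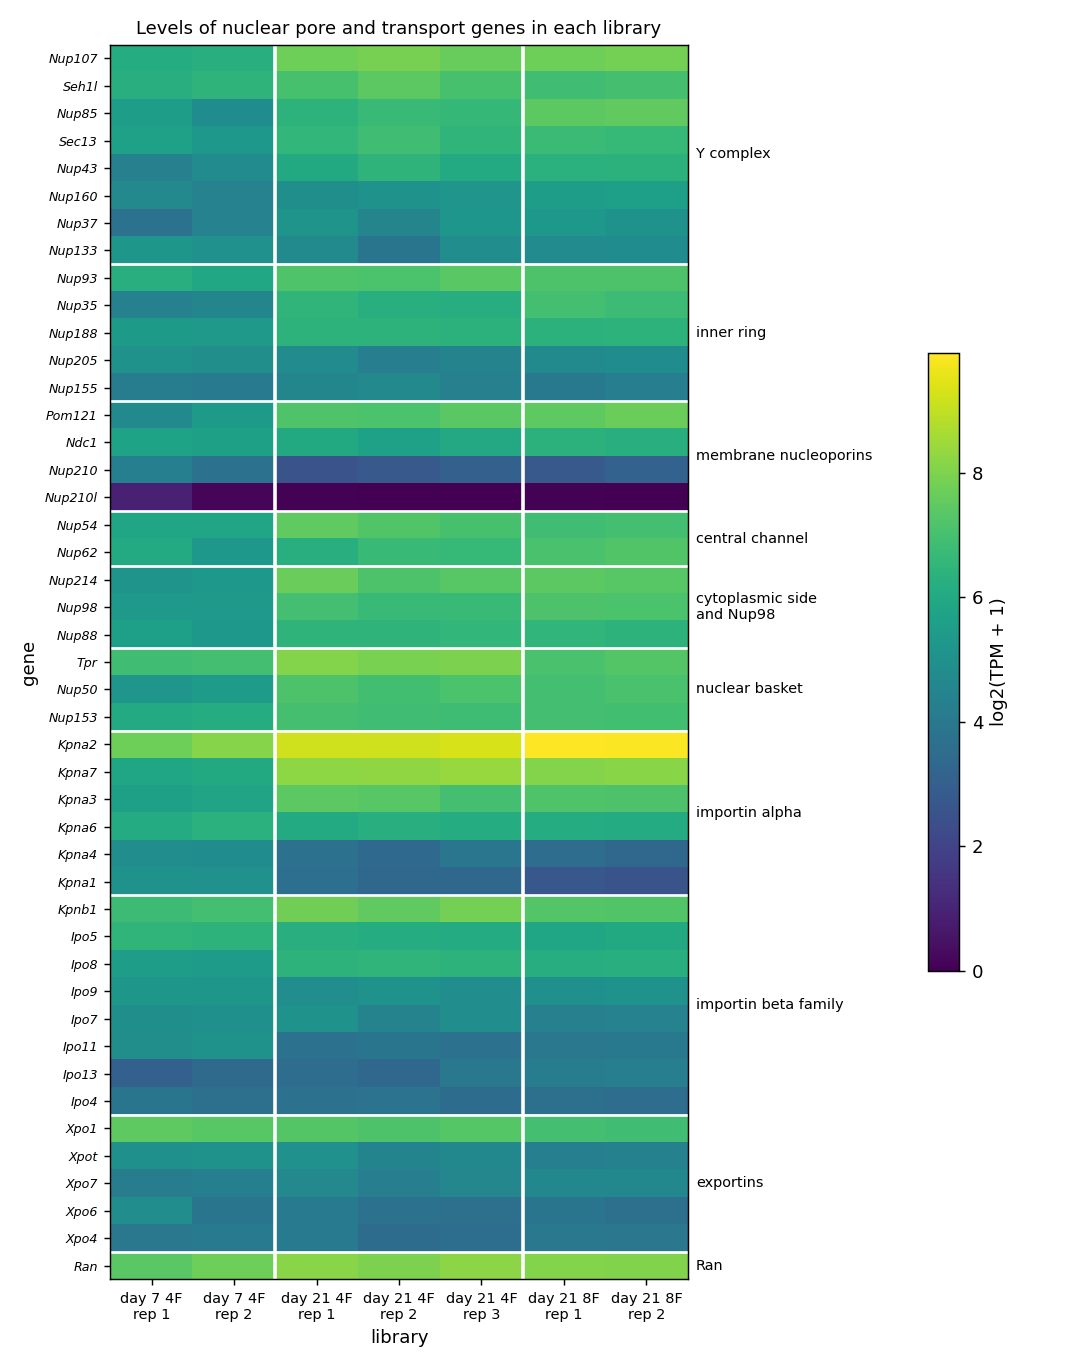
Level of each of the 45 genes (rows, grouped by place in the pore or by transport class) in each of the 7 libraries (columns), as log2(TPM + 1) in colour. Kpna2 is the brightest row in all 7 libraries, most nucleoporins are brighter at day 21 than at day 7, and Nup210l is dark throughout.

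Kpna2 and Kpna7, the highest members in every day 21 library, both lie on the reverse strand. In GRCm38 (mm10), Kpna7 (ENSMUSG00000038770.17) spans chr5:144983519-145084030 and Kpna2 (ENSMUSG00000018362.14) spans chr11:106988629-106999541. Tpr (ENSMUSG00000006005.18), the basket gene that differed between the factor sets, lies on the forward strand at chr1:150392838-150449935. The 250 bases before their RefSeq starts are shown because the induction rests on DNA-binding factors of the homeodomain class (Nobox, Lhx8) and the helix-loop-helix class (Figla, Sohlh1). Capitals mark the letters CANNTG, the general E-box bound by helix-loop-helix proteins, and would also mark TAATTG or TAATTA, core letters bound by homeodomain proteins. Both strands were searched, and CACGTG is one case of CANNTG.
Kpna7, chr5:145009637-145009886, reverse strand: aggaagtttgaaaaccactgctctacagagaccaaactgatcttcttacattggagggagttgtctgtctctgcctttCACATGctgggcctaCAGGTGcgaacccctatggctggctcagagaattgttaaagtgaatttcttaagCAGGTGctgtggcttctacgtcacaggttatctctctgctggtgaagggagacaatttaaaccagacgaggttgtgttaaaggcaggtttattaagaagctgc
Kpna2, chr11:106999526-106999775, reverse strand: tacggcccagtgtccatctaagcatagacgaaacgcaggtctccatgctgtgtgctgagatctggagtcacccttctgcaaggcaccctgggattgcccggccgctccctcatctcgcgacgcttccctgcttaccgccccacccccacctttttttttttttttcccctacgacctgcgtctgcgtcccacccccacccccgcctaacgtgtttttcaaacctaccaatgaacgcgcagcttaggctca
Tpr, chr1:150392588-150392837, forward strand: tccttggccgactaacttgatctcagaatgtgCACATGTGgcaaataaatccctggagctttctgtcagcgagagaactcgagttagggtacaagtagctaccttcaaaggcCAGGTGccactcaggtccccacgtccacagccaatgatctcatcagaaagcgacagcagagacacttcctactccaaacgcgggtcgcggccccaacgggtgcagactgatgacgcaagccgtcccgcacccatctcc

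The Kpna7 window held 3 matches to CANNTG, starting 172, 157 and 103 bases before the start, and the Kpna2 window held none. The Tpr window held 3, of which the 2 that start 218 and 216 bases before the start overlap. None of the 3 windows held TAATTG or TAATTA. The RefSeq start of Kpna7 lies inside the annotated gene span, so other start sites are annotated upstream of it.

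RefSeq windows were at hand for 35 of the 45 members, in 40 windows because some genes have several starts. CANNTG occurred in 16 of these 40 windows (40%), against 66.2% of all 32851 windows of that length. The stricter CACGTG occurred in 6 (15%), against 6.02% of all windows. TAATTG occurred in 0 of the 40, against 7.17% of all windows, and TAATTA in 1 (2.5%), that of Nup160, against 4.84%. Member windows were rich in CpG, with a median observed to expected ratio of 0.868 against 0.374 for all windows. Kpna7 stood at the other end, with a ratio of 0.231, the second lowest of the 40, and a GC content of 46%. These counts are a description of letters, windows of all genes include those of non-coding genes, and a match is not a binding site.

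The first comparison asked how members changed as 4F-mini-oocytes grew from day 7 to day 21. Most nucleoporins rose over this interval (18 of 24), whereas of the 20 receptors and Ran 6 rose, 3 fell and 11 passed no test. Of the 44 members, 24 were higher at day 21 and 4 were lower (limma, Benjamini-Hochberg FDR 0.05 over 21780 genes). For reference, 25.3% of all tested genes were called higher and 15.3% lower, and these shares were 43.5% and 13.2% of the genes whose mean reached 10 TPM. The median log2 fold change of the members was 0.80, against 0.17 for all tested genes and 0.53 for those whose mean reached 10 TPM. The groups did not overlap for 35 of the 44 members (79.5%), beside 56.7% of all tested genes and 71.4% of those whose mean reached 10 TPM.

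The scale of the libraries bears on these counts. The 10 highest genes of each library held 28.5% and 31.8% of the TPM at day 7 but between 10.2% and 14.0% at day 21, so that the remaining genes had a larger share to divide at day 21. With median-of-ratios rescaling 20 members were called higher and 10 lower, with quantile normalization 18 and 11, and with voom on estimated reads 18 and 14. The median of all tested genes was then -0.06, 0.04 and -0.32, and the member median exceeded it by 0.52, 0.16 and 0.58, compared with 0.63 on the TPM scale. Without the first day 7 library that excess was 0.32. How far the difference in library make-up accounts for the calls was not tested.

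The gap between nucleoporins and receptors kept its sign under each of these scales. Of the 24 nucleoporins 1 fell and 5 passed no test, and their median log2 fold change was 1.07. The median of the 20 receptors and Ran was -0.11. The nucleoporin median exceeded the receptor median by 1.18, and by between 0.98 and 1.29 under every alternative setting run. A factor applied to a whole library moves both medians nearly alike, and some settings leave these fold changes as they were. The narrow range was thus largely set in advance and says little about robustness. With the 3 other scales, between 14 and 15 of the nucleoporins rose and 3 fell, and between 4 and 5 of the receptors and Ran rose while between 7 and 11 fell.

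**Figure D2:**
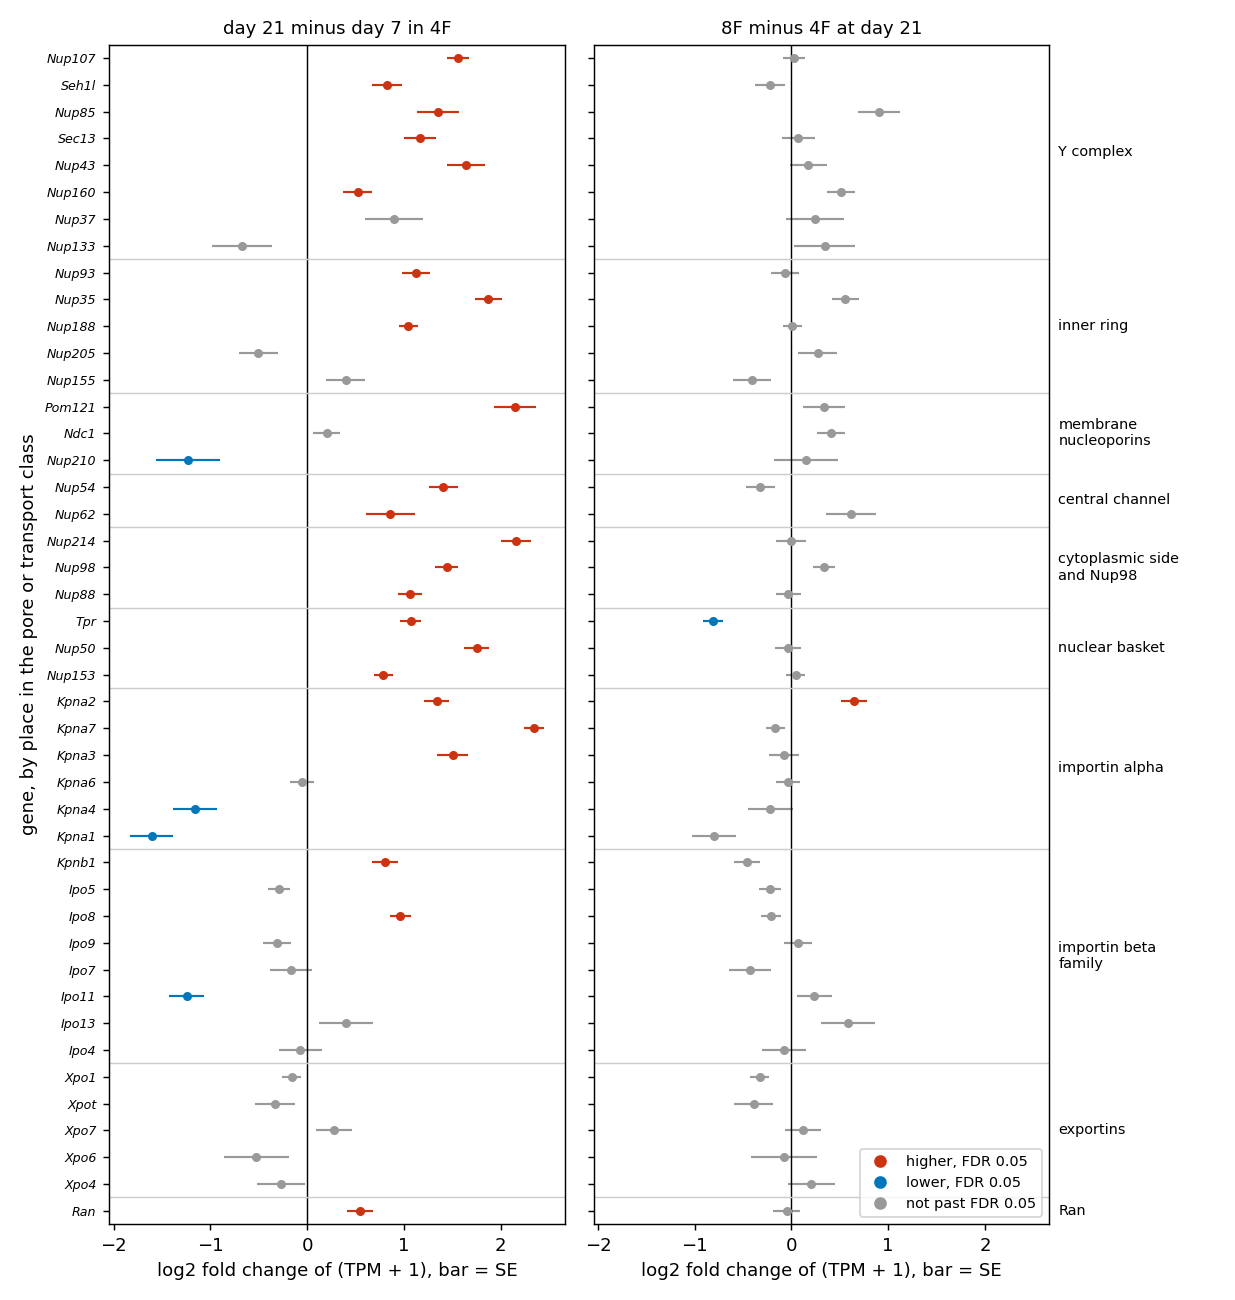
Log2 fold change of (TPM + 1) with its SE (bars) for the 44 tested genes, grouped by place in the pore or transport class, for day 21 minus day 7 in 4F (left) and 8F minus 4F at day 21 (right). On the left most nucleoporins sit to the right of 0 and the exportins sit around 0, whereas on the right only Kpna2 and Tpr are coloured as past FDR 0.05.

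The Y complex, the outer ring scaffold, contributed 6 genes that rose among 8. Nup107, its most abundant member, was at 70.4 and 73.2 TPM at day 7, at 211, 238 and 195 TPM in day 21 4F-mini-oocytes, and at 209 and 227 TPM in day 21 8F-mini-oocytes. Both day 7 libraries lay far below the 5 libraries of day 21, among which 4F and 8F overlapped. Its log2 fold change from day 7 to day 21 was 1.56 (SE 0.115, adjusted p = 0.000177). Nup43, a propeller protein of the same complex, was at 19.0 and 26.5 TPM at day 7, at 64.9, 86.9 and 66.8 TPM in day 21 4F, and at 81.0 and 82.4 TPM in 8F. The days did not overlap, and the log2 fold change was 1.64 (SE 0.193, adjusted p = 0.000973). Nup85, Sec13, Seh1l and Nup160 rose by between 0.52 and 1.35 on the log2 scale. Nup37, at 0.90 (adjusted p = 0.0517), and Nup133, at -0.67 (adjusted p = 0.136), passed no test. The call for Seh1l was lost under the 3 other scales, and that for Nup160 (adjusted p = 0.0309) in 12 of the 18 alternative settings, among them without the second day 7 library, the second or the third day 21 4F library, or either 8F library.

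The inner ring, which joins the scaffold to the membrane, had 3 genes that rose among 5. Nup35 was at 19.3 and 22.2 TPM at day 7, at 88.6, 76.5 and 71.6 TPM in day 21 4F, and at 123 and 109 TPM in day 21 8F. The 3 groups were separate, with 8F highest. The rise from day 7 to day 21 was 1.87 on the log2 scale (SE 0.143, adjusted p = 0.000200). Nup93, the most abundant gene of the ring, was at 76.5 and 60.0 TPM at day 7, at 147, 136 and 166 TPM in 4F and at 143 and 142 TPM in 8F at day 21. The days did not overlap and the factor sets did, and the rise was 1.13 (SE 0.143, adjusted p = 0.00129). Nup188 rose by 1.05, whereas its paralogue Nup205 was at -0.50 (adjusted p = 0.0934) and Nup155 at 0.40 (adjusted p = 0.162). Nup188 shares 12.4% of its exon bases with other annotated genes, one of them on the same strand.

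The membrane nucleoporins moved apart. Pom121, which anchors the pore in the envelope, was at 25.8 and 41.9 TPM at day 7, at 144, 138 and 168 TPM in day 21 4F, and at 173 and 206 TPM in 8F. Day 7 lay below every day 21 library, and the log2 fold change was 2.15 (SE 0.215, adjusted p = 0.000524). Nup210 fell from a mean of 15.5 to 5.94 TPM (log2 fold change -1.23, adjusted p = 0.0252), although this call was lost in 6 of the 18 alternative settings, among them without the first day 7 library, the first day 21 4F library or either 8F library. Ndc1, the third of the tested membrane genes, was at 0.20 (adjusted p = 0.300). Pom121 shares 11.9% of its exon bases with Nsun5 on the opposite strand, and no strand option is stated for the counting.

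All 8 tested members of the central channel, the cytoplasmic side with Nup98, and the nuclear basket rose. Ranbp2, listed with the Ran cycle and not a member, had means of 94.1 TPM at day 7 and 80.4 TPM in day 21 4F. Nup54, of the central channel, was at 56.4 and 56.0 TPM at day 7, at 179, 147 and 129 TPM in day 21 4F, and at 116 and 125 TPM in 8F. The day 7 libraries were nearly equal and lay below the others, and the rise was 1.41 (SE 0.149, adjusted p = 0.000663). Nup62, its partner in the channel, had the smaller change of 0.86 (adjusted p = 0.0345), and that call was lost in 13 of the 18 alternative settings, among them without the same libraries as for Nup160.

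Nup214, which lies on the cytoplasmic side of the pore with Nup88, was at 34.5 and 38.5 TPM at day 7, at 199, 141 and 163 TPM in day 21 4F, and at 170 and 162 TPM in 8F. The spread among the 3 day 21 4F libraries was wide but stayed well above day 7, and both 8F libraries fell within it. The log2 fold change was 2.16 (SE 0.157, adjusted p = 0.000171), compared with 1.06 for Nup88. The ratio of Nup214 to Nup88 in TPM was 0.731 and 1.01 at day 7, between 1.61 and 2.29 in day 21 4F, and 1.87 and 1.90 in 8F. The order of this pair of genes was thus Nup88 first or level with Nup214 at day 7 and Nup214 first in all 5 day 21 libraries.

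In the basket on the nuclear face, Nup50, which helps to release cargo from importin alpha, was at 35.0 and 42.7 TPM at day 7, at 140, 121 and 138 TPM in day 21 4F, and at 124 and 135 TPM in 8F. Day 7 lay below day 21, and the rise was 1.75 (SE 0.133, adjusted p = 0.000195). Tpr, the coiled-coil protein that builds the basket, was at 116 and 124 TPM at day 7, at 269, 241 and 250 TPM in day 21 4F, and at 134 and 154 TPM in day 21 8F. The 4F libraries of day 21 were the highest, whereas the 8F libraries lay just above day 7. Its rise from day 7 to day 21 in 4F was 1.07 (SE 0.107, adjusted p = 0.000528). Nup153, which tethers the basket, rose by 0.79.

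Among the importin alpha genes, 3 rose, 2 fell and Kpna6 passed no test. Kpna7 was at 57.8 and 64.1 TPM at day 7, 298, 309 and 336 TPM in day 21 4F, and 273 and 287 TPM in day 21 8F. Day 7 lay far below day 21, and both 8F libraries lay just under the lowest 4F library. The mean of 61.0 ± 4.42 TPM (SD, n = 2) compared with one of 314 ± 19.7 TPM (SD, n = 3) in day 21 4F, a log2 fold change of 2.35 (SE 0.102, adjusted p = 4.59e-05). On the TPM scale with all libraries this was the largest change of the 44 members, whereas Kpna1 changed more with quantile normalization and with voom, and Pom121 without the second day 7 library. In rank among the 45 members Kpna7 moved from place 13 and 11 at day 7 to place 2 in all 5 day 21 libraries.

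Kpna2 held place 1 among the members in all 7 libraries. It was at 210 and 274 TPM at day 7, at 593, 589 and 645 TPM in day 21 4F, and at 972 and 934 TPM in day 21 8F. The 3 groups were separate and ordered, with 8F highest. The rise from day 7 to day 21 in 4F was 1.34 (SE 0.133, adjusted p = 0.000506). A pseudogene copy, Kpna2-ps, was at no more than 2.44 TPM in any library. Kpna3 rose by 1.51 (adjusted p = 0.000647).

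Kpna1, a widely expressed importin alpha, fell. It was at 32.5 and 31.7 TPM at day 7, at 11.2, 9.22 and 9.30 TPM in day 21 4F, and at 5.54 and 4.96 TPM in 8F. The groups were again separate but in the reverse order of Kpna2. The log2 fold change from day 7 to day 21 was -1.61 (SE 0.223, adjusted p = 0.00188). Kpna4, a close relative of Kpna3, fell by 1.16 (adjusted p = 0.00778).

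**Figure D3:**
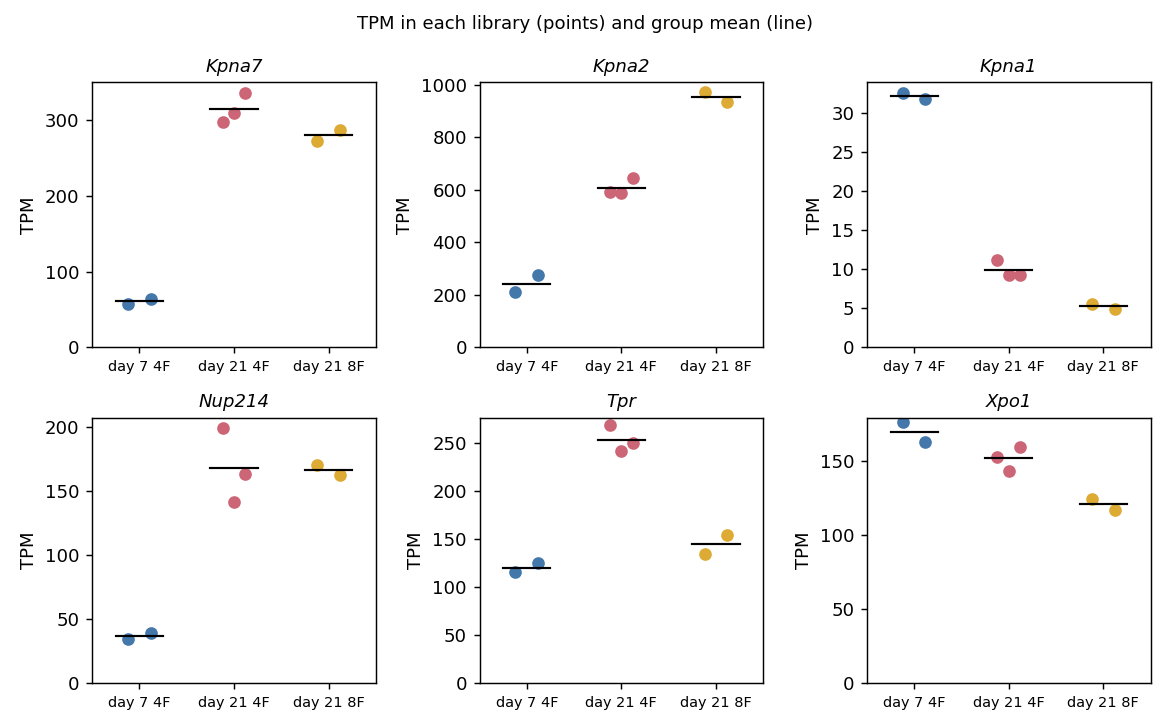
TPM in each library (points) and group mean (line) for 6 of the genes, on linear axes from 0. Kpna7 and Nup214 were higher at day 21 with both factor sets, Kpna2 was highest and Kpna1 lowest in 8F, Tpr was highest in day 21 4F, and Xpo1 passed no test in either comparison.

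The make-up of the importin alpha transcripts changed with these genes, which a share within each library shows whatever the scale between libraries. Kpna7 made up 13.0% and 12.1% of the summed importin alpha TPM at day 7, 25.9%, 26.8% and 28.1% in day 21 4F, and 18.5% and 19.9% in day 21 8F. The 3 groups did not overlap. Kpna2 made up 47.2% and 51.6% at day 7, 51.5%, 51.0% and 53.9% in day 21 4F, and 65.9% and 64.7% in day 21 8F. By TPM its ranges on the 2 days in 4F overlapped, and both 8F libraries were higher. By estimated reads its share was 30.6% and 34.7% at day 7, between 42.0% and 45.1% in day 21 4F, and 57.2% and 56.2% in 8F, without overlap. Kpna1, Kpna4 and Kpna6 each held a smaller share at day 21, Kpna6 with 15.1% and 15.0% at day 7 and between 5.74% and 6.56% in day 21 4F. With 3 libraries against 2 an exact permutation test has 10 arrangements and cannot reach 0.05, and these shares were not tested.

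The ratio of Kpna7 to Kpna2 in TPM was 0.275 and 0.234 at day 7, 0.502, 0.525 and 0.521 in day 21 4F, and 0.281 and 0.307 in day 21 8F. It was highest in the 3 day 21 4F libraries and lower in both other groups, which lay close together. Without Kpna2 in the sum, the share of Kpna7 averaged 24.8% at day 7, 56.3% in day 21 4F and 55.3% in day 21 8F, so that among the remaining importin alpha genes the factor sets differed little.

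**Figure D4:**
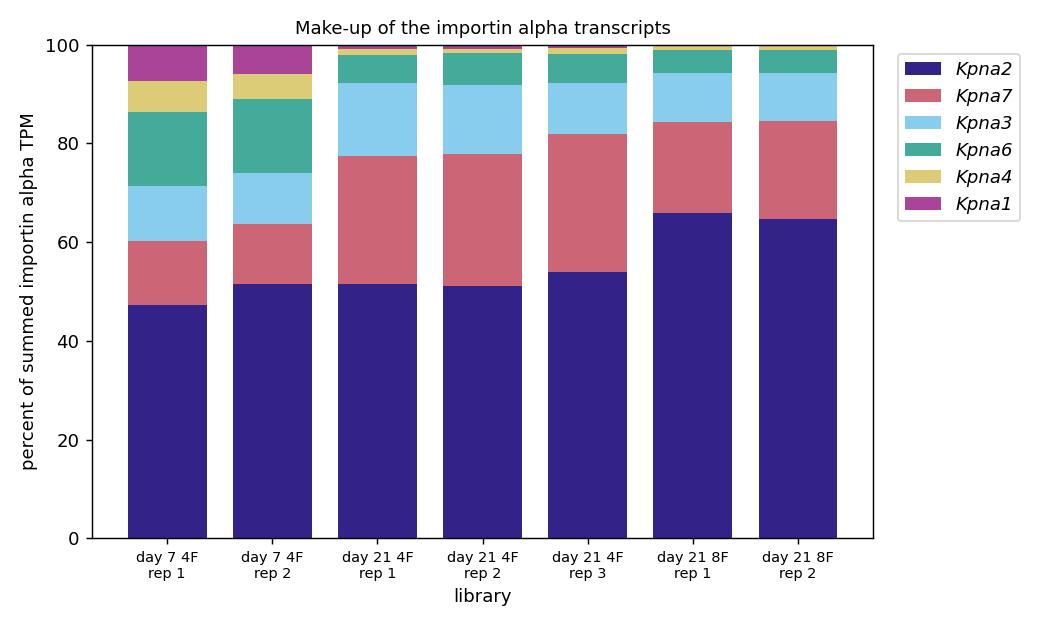
Percent of the summed importin alpha TPM that each of the 6 genes holds in each library (stacked bars, 0 to 100). Kpna7 widens from 12.1 to 13.0% at day 7 to 25.9 to 28.1% in day 21 4F, Kpna2 is widest in the 8F libraries at 64.7 and 65.9%, and Kpna1 and Kpna4 shrink at day 21.

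Importin beta, the carrier that importin alpha rides on, is encoded by Kpnb1. It was at 112 and 125 TPM at day 7, at 220, 178 and 229 TPM in day 21 4F, and at 154 and 147 TPM in 8F. The 3 groups were separate, with 8F between the days of 4F. Its rise from day 7 to day 21 was 0.81 (SE 0.135, adjusted p = 0.00389), a call lost with quantile normalization and with voom. Summed importin alpha stood at 3.99 and 4.25 times Kpnb1 in TPM at day 7, at between 5.24 and 6.48 times in day 21 4F, and at 9.59 and 9.80 times in 8F. Of the other importins, Ipo8 rose by 0.96 and Ipo11 fell by 1.25, while Ipo4, Ipo5, Ipo7, Ipo9 and Ipo13 passed no test, with log2 fold changes from -0.31 to 0.40. Ipo4 shares 55.3% of its exon bases with Gm49378 on the same strand, and its values are therefore uncertain.

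None of the 5 exportins among the members was called in this comparison (limma), and 0 of them had an unadjusted p under 0.05. Of the export factors outside the members, Xpo5 had means of 24.0 TPM at day 7 and 34.0 TPM in day 21 4F. Cse1l had means of 96.0 and 64.3 TPM. Xpo1, the main export receptor for proteins with a leucine-rich export signal, was at 176 and 163 TPM at day 7, at 153, 143 and 160 TPM in day 21 4F, and at 125 and 117 TPM in 8F. The groups lay in that order from high to low without overlap. The log2 fold change from day 7 to day 21 was -0.16 (adjusted p = 0.251). Xpo4, Xpo6, Xpo7 and Xpot had log2 fold changes between -0.52 and 0.27. Under each of the 3 other scales Xpo1 and Xpot were called lower, and Xpo4 and Xpo6 were called lower with voom, so the absence of a call holds for the TPM scale. Xpo6 was also called lower without the second day 7 library.

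Ran, the GTPase that sets the direction of transport, was at 168 and 214 TPM at day 7, at 288, 249 and 296 TPM in day 21 4F, and at 270 and 266 TPM in 8F. Day 7 lay below day 21 and the factor sets overlapped. The change was 0.55 (SE 0.136, adjusted p = 0.0186), but it was not past the threshold in 8 of the 18 alternative settings and turned to -0.0465 with quantile normalization and to -0.0072 with voom. Among those 8 were the settings without the first day 7 library and without the first or the third day 21 4F library. The value is also uncertain because Ran has a retrocopy, Rasl2-9, which was at between 28.0 and 56.3 TPM.

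The second comparison set 8F against 4F at day 21. The 4F- and 8F-mESCs are separate lines from the same parental cells, and the reporter is described for the 8F-mESCs. Factor set and cell line therefore cannot be told apart. Only 1 member rose, Kpna2, and 1 fell, Tpr, and the other 42 were not called. The shares called among all tested genes were 3.95% higher and 4.41% lower, and 4.26% and 7.95% of those whose mean reached 10 TPM, and 1 of 44 members is 2.27%, below each of these. Of the 44, 11 (25%) had an unadjusted p under 0.05, 7 of them higher in 8F and 4 lower, beside 22.3% of all tested genes and 30.8% of those whose mean reached 10 TPM. With voom on estimated reads, 8 members were called higher and 1 lower, and with either other scale the split was 1 and 1. The member median was 0.00 on the log2 scale, against 0.06 for all tested genes.

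Kpna2 rose from 609 ± 31.3 TPM (SD, n = 3) in 4F to a mean of 953 TPM in the pair of 8F libraries, a log2 fold change of 0.65 (SE 0.133, adjusted p = 0.0346). Both 8F libraries lay above all 3 of 4F. The call was lost in 9 of the 18 alternative settings, among them without any one library of day 21 (adjusted p from 0.0688 to 0.293), although the fold change stayed between 0.62 and 0.82. Tpr fell from 253 ± 13.9 TPM (SD, n = 3) to a mean of 144 TPM, a log2 fold change of -0.81 (SE 0.107, adjusted p = 0.0108). Its call was lost in 4 settings, including without the first 8F library (adjusted p = 0.146) or without the second (adjusted p = 0.0826), and its fold change stayed between -0.91 and -0.67.

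Some members that passed no test stood near the threshold. Nup85, of the Y complex, was at 84.2, 101 and 95.9 TPM in 4F and at 170 and 181 TPM in 8F (log2 fold change 0.90, SE 0.216, adjusted p = 0.0543), and it was called in 8 of the 18 alternative settings. Nup35 was at 0.56 (adjusted p = 0.0658), Kpna1 at -0.80 (adjusted p = 0.0848), Nup160 at 0.51 (adjusted p = 0.0962) and Kpnb1 at -0.46 (adjusted p = 0.0964). Nup85 and Nup160 were named here after their values were seen. Kpna7 was at -0.16 (SE 0.102, adjusted p = 0.418) and Nup214 at 0.00 (SE 0.157), so their difference between factor sets was small beside the change with day. The factor sets did not overlap for 22 of the 44 members (50%), beside 43.8% of all tested genes and 54.5% of those whose mean reached 10 TPM. The number of decimals in the deposited values also differs between the 4F and 8F libraries, and the factor set and whatever lies behind that difference cannot be told apart.

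When the day 21 8F libraries were set against the day 7 libraries, 25 members (56.8%) were higher and 6 (13.6%) lower. For reference, these shares were 24.2% and 13.0% of all tested genes. They were 38.3% and 12.7% of the genes whose mean reached 10 TPM. The share of members called lower thus lay near that of other genes. The split of members was 20 and 9 with median-of-ratios rescaling, 18 and 10 with quantile normalization and 20 and 12 with voom. The 6 lower calls became 1 without the second 8F library, 2 without the first and 3 without the first day 7 library. This comparison shares its libraries with the other 2. Xpo1 (log2 fold change -0.49, adjusted p = 0.0144), Xpot (-0.72, adjusted p = 0.0430) and Ipo5 (-0.51, adjusted p = 0.0203) were called lower here, with Ipo11, Kpna4 and Kpna1. The calls for Xpo1, Xpot and Ipo5 were each lost without either 8F library and without the first day 7 library. Kpna1 had the largest fall, from 32.1 to 5.25 TPM (-2.41, adjusted p = 0.000768). None of these 6 genes was called between 8F and 4F at day 21.

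Other genes of the pathway, listed by role with earlier results of these data known, were taken alongside. Of the 33 tested among 34, 14 rose and 5 fell from day 7 to day 21 in 4F, with a median log2 fold change of 0.48. These shares of 42.4% and 15.2% lay near the 43.5% and 13.2% of genes whose mean reached 10 TPM, where the median was 0.53. Components of the lamina and envelope contributed 5 that rose of 8, among them Lmna, which encodes lamin A (16.9 to 72.3 TPM, log2 fold change 2.03, adjusted p = 0.000191), and Lbr, the lamin B receptor (35.6 to 146 TPM, 2.02, adjusted p = 0.000168). The Ran cycle contributed 4 of 7, with Ranbp3, a cofactor of Xpo1, at 1.97 (14.1 to 58.9 TPM, adjusted p = 0.000673). Nup62cl, a gene related to Nup62, fell from 40.4 to 4.03 TPM (-3.03, adjusted p = 0.00125).

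Between the factor sets at day 21, 0 of these 33 genes rose and 3 (9.09%) fell (limma), beside 4.26% and 7.95% of genes whose mean reached 10 TPM. With an unadjusted p under 0.05, 3 were higher in 8F and 6 lower. Ranbp1, which stimulates GTP hydrolysis on Ran, fell from 156 to 79.2 TPM in 8F (log2 fold change -0.97, adjusted p = 0.00722). Lmnb2, which encodes lamin B2, fell from 54.1 to 32.7 TPM (-0.70, adjusted p = 0.0387), and Nxt2, an mRNA export cofactor, fell from 10.6 to 3.31 TPM (-1.47, adjusted p = 0.0328). The 5 other import receptors and adaptors of the list gave no call between the factor sets.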

How the data were processed

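RNA-seq of 7 libraries was analysed, grouped by the sample labels. The deposited TPM were made by the authors from reads trimmed (Trim Galore!), mapped to mm10 (Hisat2), cleared of rRNA (Bedtools), restricted to unique hits and assigned to GENCODE vM25 genes by featureCounts, which split reads that fall in several genes and for which no strand option is stated. Genes with near-identical copies lose reads to the restriction to unique hits. The authors tested counts with edgeR, and those counts were not used here.

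A gene entered the test if 2 or more libraries reached 1 TPM, which held for 21780 of 55364. Values were transformed to log2(TPM + 1), with a pseudocount of 1, and fitted in limma 3.58.1 under R 4.3.3 (eBayes with a trend, all 7 libraries in 3 groups, two-sided, Benjamini-Hochberg over all tested genes, FDR 0.05). A fold change on this scale understates the change of low genes. The fit was tested on simulated data. Reads per library (9051761 to 17190271) were estimated from TPM steps with GENCODE vM21 exon lengths, which matched 43 members by version and also gave the coordinates. Between 77.7% and 83.9% of low values came out whole within 0.02 reads. Promoters are RefSeq sequences on GRCm38.p6.

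The members and lists were chosen with earlier results of these data known. Values by library are given for Kpna7, Kpna2, the highest member of each structural group, and up to 8 members with the largest change past FDR 0.05 and a mean of at least 10 TPM in the higher group, and up to 4 related genes were named by the same rule.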

Additional observations from a re-analysis of the deposited data

How the results depend on the processing

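The alternatives were 11 other settings and leaving out each library in turn. The number of members called between day 7 and day 21 in 4F stayed within 1.5 times the value given, at 25 to 28 without any one library. Between 8F and 4F at day 21, where 2 were called, the count was 1 without the filter on low values, 0 with eBayes without the trend, 8 with array weights, 9 with voom on estimated reads, and 0 to 3 without any one library, with 0 when either 8F library was left out (the lone 8F library is then assumed to vary like the other groups). Between day 21 8F and day 7 it was 20 to 32 without any one library, against 31, the lowest without the second 8F library. With the replicate number as a replicate block, 24, 0 and 26 members were called in the 3 comparisons. Correlations of the deviations of libraries were between -0.0369 and 0.0369. In a group of 2 libraries the deviations mirror each other, which makes this range symmetric. These correlations cannot show whether samples with the same number share more than that number. Ran turned from 0.55 to -0.0465 (quantile normalization) and -0.0072 (voom). The share of Kpna7 among importin alpha transcripts, on average 12.5%, 26.9% and 19.2%, was 9.01%, 24.3% and 18.2% of estimated reads, and 24.8%, 56.3% and 55.3% without Kpna2 in the sum, for day 7, day 21 4F and day 21 8F. The cause of these shifts was not tested. A tested member had at least 121 estimated reads in every library, and groups of 2 or 3 libraries limit the precision.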
